A study of Mus musculus with 2 samples.

Results

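The genes described here are 9 genes of insulin receptor signalling: the receptors Insr and Igf1r, the receptor substrates Irs1 and Irs2, the PI3-kinase subunits Pik3r1 and Pik3ca, the kinases Akt1 and Akt2, and the transcription factor Foxo1. They were chosen by name from the 22367 protein-coding genes of GENCODE release M1 (mouse genome mm9), without use of their binding values. Earlier results of these data were, however, known when the genes were chosen. Peaks of tagged Rfx6 were assigned to a gene when the summit, the position of highest signal, lay inside the gene or within 50 kb of either end. By this rule 43 of the 23308 listed peaks belonged to the 9 genes, and each of the 9 genes had at least 1.

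Rfx6 binding was measured by ChIP-seq in Min6b1 cells, an insulin-secreting mouse β cell line grown in 25 mM glucose. For the 3HA-Rfx6 group, the cells received 24 µg of a plasmid that expresses Rfx6 with an HA tag from the CMV promoter, were harvested 2 days later, and chromatin carrying the tagged protein was collected with the anti-HA antibody 12CA5. The control group was anti-HA ChIP-seq of cells labelled Min6b1, and since the growth text of both samples names the plasmid, whether the control cells received it is not clear from the labels. There was 1 library per group, so no value below has a replicate error, and genes or peaks of 1 library are not replicates. The protein was tagged and over-expressed in a transfected cell line, and a peak list holds no expression values with which the cell type could be checked.

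In insulin signalling, the hormone activates a receptor tyrosine kinase, which phosphorylates insulin receptor substrate proteins. These recruit PI3-kinase, a dimer of a regulatory and a catalytic subunit, whose lipid product brings Akt kinases to the membrane, and Akt in turn keeps FoxO transcription factors out of the nucleus. β cells carry this pathway themselves, and in these cells it is known for its part in growth, survival and insulin content. Rfx proteins recognise the X-box, an imperfect inverted repeat around a short spacer.

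The 3HA-Rfx6 library held 49443917 reads of 50 bases, of which 33949757 (68.7%) were kept at 1 read per position, against 3567375 kept reads (21.1%) of the control. Each peak has a count of reads, a fold enrichment over the background estimated from control and local reads, and an FDR. Over all peaks the median count was 73 (24 to 3489) and the median fold enrichment 8.54. The 43 peaks near the 9 genes held 35 to 312 reads with a median of 83, and their fold enrichments lay between 4.47 and 27.1 (median 9.43). Their FDR lay between 1.78% and 7.68%. It was highest, at 7.68, 5.75 and 5.57%, for the peaks with the most reads, those at or near the starts of Akt1, Pik3r1 and Irs2. The lowest FDR belonged to an Irs2 peak of 62 reads, so the FDR did not order these peaks as their reads did. The list leaves out regions with a p-value above 1e-05, so weaker binding was not detectable at this depth. Intervals given below (95%, exact Poisson for reads and Wilson for shares) cover counting error only.

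The sequences that follow show the 5 peaks with a strict or wide X-box, 3 of the peaks with a near match, among them one over a tandem repeat, and high peaks without an X-box. Peaks of a gene are numbered in the direction of its transcription. Each stretch (mm9) is written on the strand of the gene, in lower case with the X-box in capitals, and the capitals are explained after each set.

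The following 2 peaks had a strict X-box, the narrow form of the motif that also restricts purines and pyrimidines, and it is the part in capitals.
Pik3r1 peak 3, chr13:102537616-102537736 (minus strand): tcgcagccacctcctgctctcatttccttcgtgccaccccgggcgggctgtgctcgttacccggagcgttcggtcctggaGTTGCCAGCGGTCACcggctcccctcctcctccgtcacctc
Irs2 peak 5, chr8:10979586-10979706 (minus strand): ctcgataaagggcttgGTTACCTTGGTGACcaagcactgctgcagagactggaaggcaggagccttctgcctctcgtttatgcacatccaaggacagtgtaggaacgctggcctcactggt

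A wide X-box, spelled GTNNCC, then 0 to 3 bases, then NGNAAC, was found in these 3 further peaks and is in capitals. The strict form is contained in the wide form, and both strands were searched in the 200 bp around each summit.
Irs2 peak 7, chr8:10944897-10945017 (minus strand): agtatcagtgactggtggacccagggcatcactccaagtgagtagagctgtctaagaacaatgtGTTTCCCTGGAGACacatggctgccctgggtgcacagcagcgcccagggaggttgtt
Igf1r peak 1, chr7:75098182-75098342 (plus strand): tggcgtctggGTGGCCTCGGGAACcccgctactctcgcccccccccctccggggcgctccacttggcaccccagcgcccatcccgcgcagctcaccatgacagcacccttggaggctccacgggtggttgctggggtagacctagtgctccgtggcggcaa
Insr peak 2, chr8:3169669-3169859 (minus strand): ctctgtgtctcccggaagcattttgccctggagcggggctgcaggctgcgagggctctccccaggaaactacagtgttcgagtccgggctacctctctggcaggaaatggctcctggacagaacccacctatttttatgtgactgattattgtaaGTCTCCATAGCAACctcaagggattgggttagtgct

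In these 3 peaks a strict X-box with 1 letter off is in capitals, and the first of them holds it in 3 copies. Pik3r1 peak 7 and Irs2 peak 6 also held such a match, 0 and 17 bp from the summit at the nearest, and are not printed.
Insr peak 3, chr8:3106050-3106240 (minus strand): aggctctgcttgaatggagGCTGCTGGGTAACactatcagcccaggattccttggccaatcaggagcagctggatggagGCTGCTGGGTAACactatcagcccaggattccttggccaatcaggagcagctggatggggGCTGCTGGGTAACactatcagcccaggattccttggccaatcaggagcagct
Akt2 peak 1, chr7:28381102-28381222 (plus strand): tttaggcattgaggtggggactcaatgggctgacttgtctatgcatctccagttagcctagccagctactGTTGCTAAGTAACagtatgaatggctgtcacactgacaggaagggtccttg
Pik3ca peak 3, chr3:32391065-32391185 (plus strand): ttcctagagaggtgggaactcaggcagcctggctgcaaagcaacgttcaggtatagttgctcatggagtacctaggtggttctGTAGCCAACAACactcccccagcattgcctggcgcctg

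For comparison, these are the summits of 2 of the 3 peaks with the most reads, in which no X-box of any of these forms was found, so nothing is in capitals.
Akt1 peak 4, chr12:113912785-113912905 (minus strand): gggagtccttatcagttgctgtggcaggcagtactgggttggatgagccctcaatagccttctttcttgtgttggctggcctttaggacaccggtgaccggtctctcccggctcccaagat
Irs2 peak 1, chr8:11009590-11009710 (minus strand): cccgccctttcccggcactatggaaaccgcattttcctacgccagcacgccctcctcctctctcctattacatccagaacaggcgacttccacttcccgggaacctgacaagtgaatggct

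All 9 genes had a summit inside them or within 50 kb (9 of 9, Wilson interval 70.1 to 100%), where 67.8% of all protein-coding genes had one. A summit inside the gene itself was present for 7 of the 9 (77.8%, 45.3 to 93.7%), against 31.3% of all protein-coding genes. Within 1 kb of one of the gene's own protein-coding transcript starts, 6 of the 9 had a summit (66.7%, 35.4 to 87.9%), against 22.6% of all protein-coding genes. These 6 were Igf1r, Irs2, Pik3r1, Akt1, Akt2 and Foxo1, while Insr, Irs1 and Pik3ca had none there. The 9 genes are 21.1 to 274 kb long and the median protein-coding gene is 15.4 kb, so each was also set beside the 200 other protein-coding genes nearest to it in length. Of these, 65.0 to 82.5% had a summit within 50 kb, 31.0 to 74.0% had one in the gene, and 22.5 to 38.0% had one at their own start. The shares of similar-length genes were thus higher than those of all genes for most of the 9, in the gene above all for Igf1r (74.0%) and Insr (62.0%). In number of peaks within 50 kb, 6 of the 9 genes lay above the median of their similar-length genes, Igf1r and Foxo1 lay at it, and Irs1 lay below.

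**Figure D1:**
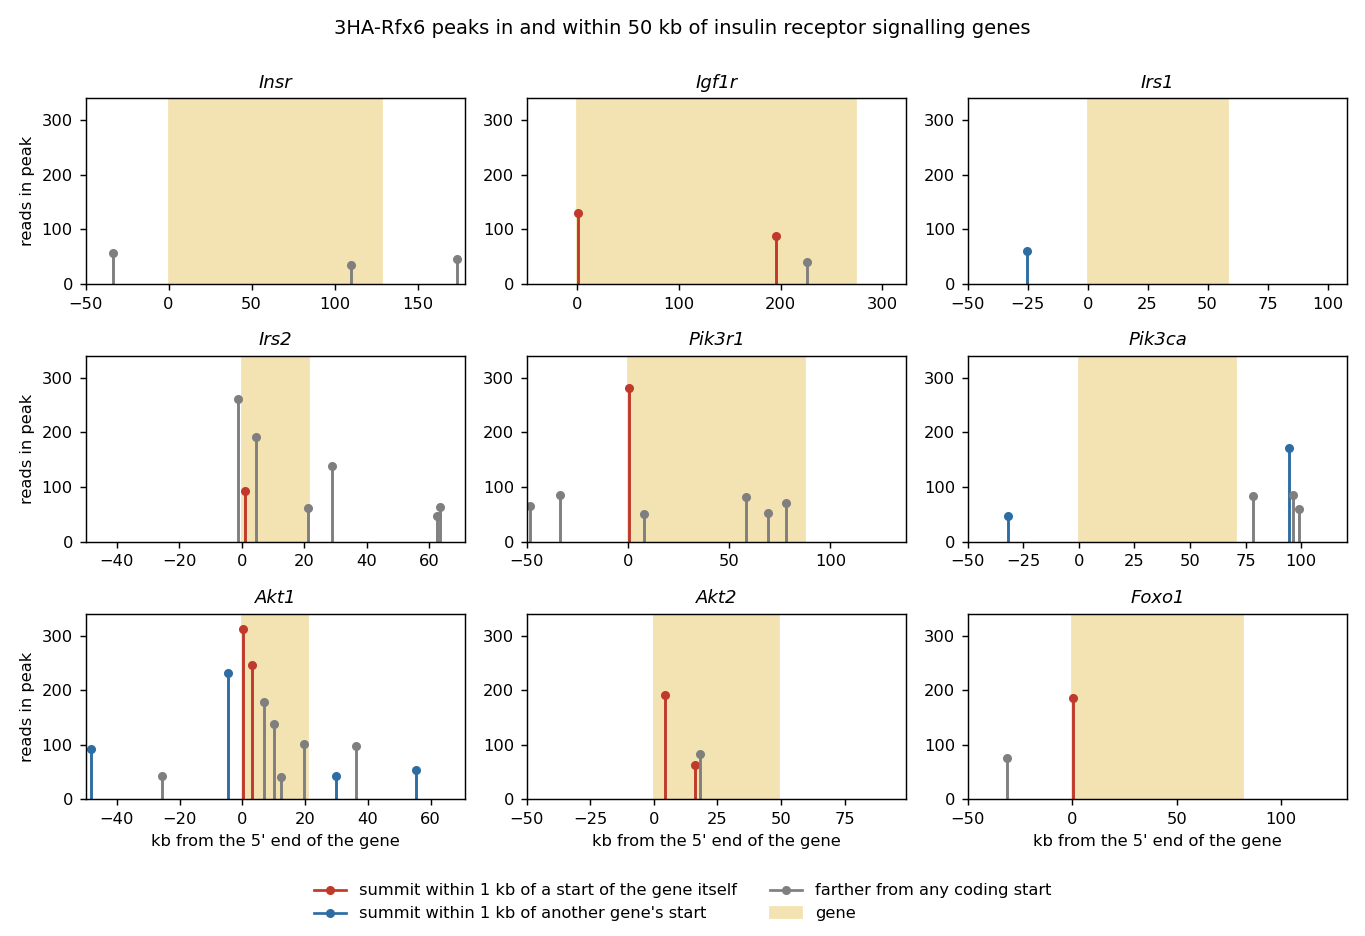
Position (kb from the 5′ end of the gene, in the direction of transcription) and reads of the 43 peaks near each of the 9 genes, where a stem marks a summit and the shaded band marks the gene. The tallest stems stand at or near the starts of Akt1 (312 reads), Pik3r1 (281) and Irs2 (261), whereas Irs1 and Pik3ca hold no summit within the band.

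Insr encodes the insulin receptor itself. The gene (ENSMUSG00000005534.8, minus strand of chromosome 8, 3150922 to 3279617) is 129 kb long, and has no other protein-coding gene within 50 kb. Its 3 peaks held 56, 35 and 46 reads, which placed them at ranks 32, 43 and 37 of the 43. The peak of 56 reads (42.3 to 72.7) was 33.5 kb upstream of the start, with a fold enrichment of 8.76. The peak of 35 reads (24.4 to 48.7) had its summit in coding exon 13 of the 21 exons of Insr-001, 23.0 kb from the nearest Insr start, and had the fewest reads of all 43. Its wide X-box lay outside that exon, 5 bp from its edge and 60 bp from the summit. The peak of 46 reads (33.7 to 61.4) was 44.8 kb downstream of the gene. Insr thus had no peak above the median of 73 reads and none at its own starts. Among its 200 similar-length genes, 47.5% had at least 3 peaks, and 72.5% had a highest peak of at least 56 reads.

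The downstream peak of Insr stood on a tandem repeat. In the 191 bases printed above, 120 of 131 bases (91.6%) were identical to the base 60 positions further along, and the near X-box recurred at that spacing in 3 copies, of which the middle one lay 4 bp from the summit. Over 400 bases around the summit, 57.1% of bases matched at a shift of 60, where the median over all peaks at their best shift was 32.7%, and 1.77% of peaks reached as much. The next highest value among the 43 peaks was 38.4%. How reads of such repeats were placed is not given in the sources used here, so the reads of this peak are less certain than those of the others.

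Igf1r encodes the receptor for IGF1, a close relative of the insulin receptor. The gene (ENSMUSG00000005533.8, plus strand of chromosome 7, 75097713 to 75371484) was, at 274 kb, the longest of the 9 genes. Its 3 summits were inside the gene. The first peak held 130 reads (109 to 154) at a fold enrichment of 22.1, rank 13 by reads and rank 4 by fold. Its summit was in intron 1 of Igf1r-201, 549 bp after the start, the interval covered the start, and a wide X-box lay 57 bp from the summit. The next peak held 87 reads (69.7 to 107, fold 12.7) in intron 2, 555 bp before the start of the shorter transcript Igf1r-202, and a half-site of the X-box, GTTGCC, lay 25 bp from the summit. The last held 41 reads (29.4 to 55.6, fold 5.18) in intron 5 of the 21-exon transcript. Igf1r therefore had peaks at both of its annotated coding starts, whereas its relative Insr had peaks at neither. For genes of its length, 3 peaks was also the median, and 29.5% had a highest peak of at least 130 reads. The intervals of the highest peaks of Igf1r and Insr did not overlap.

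Irs1 and Irs2 encode the main docking proteins that the activated receptors phosphorylate. Irs1 (ENSMUSG00000055980.2, minus strand of chromosome 1, 82229676 to 82287991) had the fewest peaks of the 9 genes. Its only summit lay 25.4 kb upstream of the gene and 413 bp from the start of Rhbdd1, a neighbouring gene, and held 60 reads (45.8 to 77.2) at a fold enrichment of 5.41. At least 1 peak within 50 kb was present for 81.0% of the genes of similar length. Irs1 was 1 of 2 members, with Pik3ca, that had no summit in the gene.

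Irs2 (ENSMUSG00000038894.6, minus strand of chromosome 8, 10986980 to 11008458) had 7 peaks over a gene of 21.5 kb with no other protein-coding gene within 50 kb. The peak with the most reads, 261 (230 to 295, fold 21.7), had its summit 1192 bp upstream of the start, and its interval of 2233 bp extended over the start. The summit is just outside the 1 kb limit and is not among the peaks counted at an own start. A peak of 92 reads (74.2 to 113, fold 9.65) followed in coding exon 1, 972 bp after the start, just inside that limit. The next peaks were in intron 1, the only intron of the gene, with 192 reads (166 to 221, fold 14.8) at 4.52 kb and 62 reads (47.5 to 79.5) at 21.0 kb from the start. Irs2 was thus marked from before its start to near its end.

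Downstream of Irs2, the peak at 7.33 kb from the end of the gene held 139 reads (117 to 164, fold 10.1) and contained a strict X-box at chr8:10979677-10979690, 31 bp from the summit. The peaks at 40.9 and 42.0 kb held 46 and 63 reads, and the latter had a wide X-box 4 bp from its summit. Both of these last summits were nearer to the start of 3930402G23Rik (17.6 and 16.5 kb) than to that of Irs2. Of the 200 genes of similar length, 8.50% had at least 7 peaks within 50 kb and 3.50% had at least 3 in the gene. Among the 200 nearest in length that also had no neighbour within 50 kb, a comparison added after the data were seen, 1.00% had as many as 7. The pair of substrates thus differed in number of peaks (7 against 1) and in the highest peak (261 against 60 reads), whose intervals did not overlap.

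Pik3r1 encodes p85α, the regulatory subunit that binds phosphorylated substrates and holds the catalytic subunit. The gene (ENSMUSG00000041417.8, minus strand of chromosome 13, 102450716 to 102538172) had 7 peaks, 5 of them in introns. The highest, with 281 reads (249 to 316) at a fold enrichment of 23.5, had its summit in intron 1 of Pik3r1-202, 496 bp after the start, and covered the start. It ranked 2 of the 43 by reads and 3 by fold, and 3.12% of all peaks had as many reads. This was the only peak at an own start of any of the 9 genes that held a strict X-box, at chr13:102537642-102537656, 20 bp from the summit. On the strand of the gene this X-box begins with the half-site GTTGCC, so the same bases count in both searches.

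The other peaks of Pik3r1 were lower. Those in intron 1 (7.83 kb after the start), intron 2, intron 7 and intron 8 held 51, 81, 53 and 71 reads, and the last of them also lies in the overlapping gene Gm11016, 2349 bp from the start of the short transcript Pik3r1-201. The 2 upstream peaks, 48.2 and 33.5 kb before the start, held 65 and 86 reads. The peak of 86 reads had a half-site at its summit, 0 bp away, and a fold enrichment of 14.8. Every one of the 7 summits was nearer to a Pik3r1 start than to that of another gene. At least 7 peaks were present for 15.5% of the genes of similar length and at least 5 inside the gene for 6.50%.

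Pik3ca encodes p110α, the catalytic subunit that pairs with p85α. The gene (ENSMUSG00000027665.7, plus strand of chromosome 3, 32296593 to 32367408) had 5 peaks within 50 kb and 0 inside it, where the median of its similar-length genes was 1 in the gene. Each of the 5 was nearest to the start of another gene. The peak of 47 reads, 32.0 kb upstream, had its summit inside Zmat3, 4 bp from the start of that gene. The 4 downstream peaks held 83, 171, 86 and 59 reads, and the one of 83 lay inside Kcnmb3, 16.0 kb from its start. The nearest start of all 4 was that of Kcnmb3, which encodes a β subunit of calcium-activated potassium channels. The highest of them, 171 reads (146 to 199) at a fold enrichment of 25.4, was 234 bp from the Kcnmb3 start and 23.7 kb beyond the end of Pik3ca. It ranked 10 by reads and 2 by fold. It held a strict X-box with 1 letter off, 23 bp from the summit. By the distance rule these peaks belong to Pik3ca, and to which gene they are related was not tested.

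The partners of the PI3-kinase dimer therefore differed: the regulatory gene had 5 summits in the gene and the catalytic gene had 0. In number of peaks within 50 kb the difference was 7 against 5. The intervals of the highest peaks (249 to 316 and 146 to 199 reads) did not overlap. That difference was in reads over intervals of unlike length, 2169 and 1369 bp. Per kb the peaks held 130 and 125 reads, and the fold enrichment was lower for Pik3r1 (23.5) than for Pik3ca (25.4). The Pik3ca peak was also the one at the Kcnmb3 start.

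Akt1 and Akt2 encode the kinases that carry the signal on, of which Akt2 is known best for glucose uptake in muscle and fat and Akt1 for growth. Akt1 (ENSMUSG00000001729.7, minus strand of chromosome 12, 113892032 to 113913095) had the most peaks of the 9 genes, with 12 within 50 kb and 6 inside its 21.1 kb. The highest held 312 reads (278 to 349) at a fold enrichment of 27.1, rank 1 of the 43 by reads, by fold and by reads per kb. Its summit was in intron 1 of Akt1-002, 250 bp after the start, and 2.27% of all peaks had as many reads. The next, of 246 reads (216 to 279, fold 15.9), was in intron 1 of Akt1-001 and 219 bp before the start of Akt1-006. Both peaks covered the start they lay at.

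Further summits of Akt1, in intron 2 of Akt1-001, held 178, 138 and 40 reads, and another in intron 12 of that 14-exon transcript held 102. The peak of 138 reads had a fold enrichment of 5.39, which 88.2% of all peaks reached, whereas 17.9% reached its reads. Outside the gene, a peak of 232 reads (203 to 264, fold 15.5) lay 4.52 kb upstream of Akt1 and 314 bp from the start of Zbtb42, which encodes a zinc finger protein. The remaining 5 summits outside held 93, 42, 42, 98 and 53 reads, and 3 of them were within 1 kb of the starts of AW555464, Siva1 and Adssl1. In all, 5 of the 12 summits were nearest to an Akt1 start and 7 to another gene's start. Akt1 has 5 other protein-coding genes within 50 kb.

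Of the 200 genes of the length of Akt1, 2.00% had at least 12 peaks within 50 kb and 0 had at least 6 in the gene. With the comparison restricted to genes that also had 5 neighbours, the share with at least 12 was 1.00%. None of the 12 peaks held an X-box of the strict or wide form, a strict X-box with 1 letter off, or the half-site in the 200 bp around its summit.

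Akt2 (ENSMUSG00000004056.8, plus strand of chromosome 7, 28376571 to 28425845) also has 5 neighbours within 50 kb, and its 3 summits were inside the gene. The first peak held 192 reads (166 to 221) but spread over 3439 bp, the longest interval of the 43. It had 55.8 reads per kb and a fold enrichment of 6.59, so that it ranked 6 by reads, 25 by reads per kb and 31 by fold. Its summit was in intron 1 of Akt2-001, 687 bp before the start of Akt2-006, and a strict X-box with 1 letter off lay 10 bp from it. The others held 62 reads (intron 1, 94 bp from the start of Akt2-009) and 83 reads (intron 2, 1009 bp from the start of Akt2-013, just outside the 1 kb limit). Akt2 has 12 annotated coding starts, more than any other of the 9 genes, which gives it more places at which a summit can count as near a start. At least 3 peaks within 50 kb were present for 42.5% of genes of its length, and at least 3 in the gene for 11.0%. Among genes near its length that also had 5 neighbours, 59.5% had at least 3 within 50 kb, and the median was 3. For Pik3ca the same restriction also raised the share with at least as many, from 24.0% to 38.0%. It lowered that share for the rest of the 9 genes. Akt1 thus exceeded Akt2 in peaks (12 against 3) and in the highest peak (312 against 192 reads), with intervals that did not overlap.

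Foxo1 encodes a FoxO factor, one of those that Akt phosphorylates. The gene (ENSMUSG00000044167.5, plus strand of chromosome 3, 52072259 to 52154031) had 2 peaks and no other protein-coding gene within 50 kb. The peak at the start held 185 reads (159 to 214, fold 9.88), and its summit lay in the 5′ UTR, in exon 1 of 3, 371 bp after the start. Its 200 bp held 29 CpG dinucleotides, a number that 0.605% of all peaks reached, against a median of 3. Of all peaks, 21.0% lay within 1 kb of a protein-coding start, and the share among those alone is not given. The other peak, 31.2 kb upstream, held 75 reads (59.0 to 94.0) at a fold enrichment of 14.1 and had a half-site 23 bp from its summit. Fewer reads thus went with the higher fold enrichment in this gene. At least 2 peaks were present for 59.0% of the genes of similar length, and 22.5% had a highest peak of at least 185 reads. The forkhead site TGTTTAC, which FoxO proteins recognise, was found at none of the 43 summits and at 2.45% of all summits, and at 2.57% of windows 1 kb to the right.

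**Figure D2:**
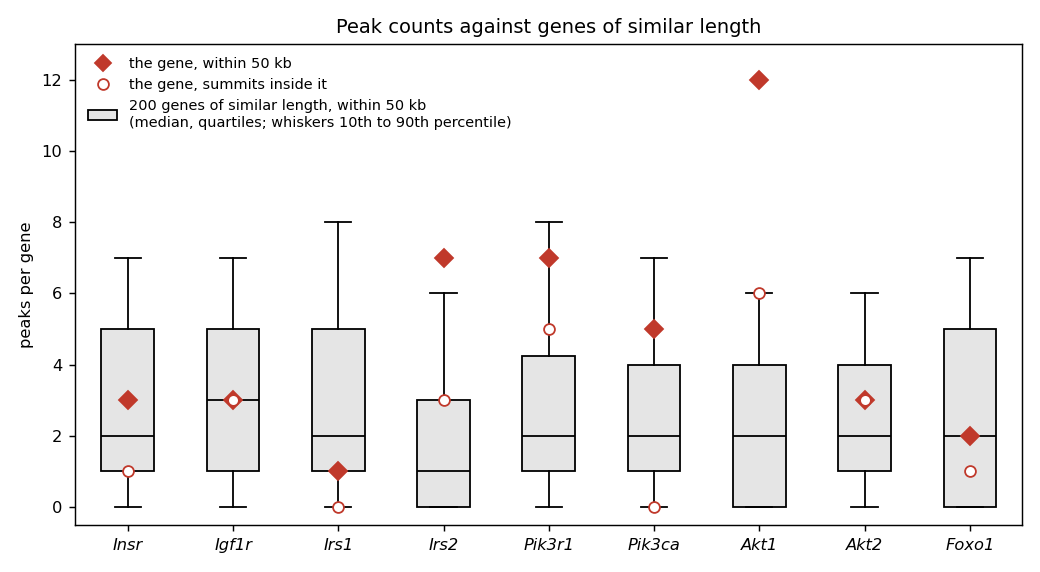
Number of peaks within 50 kb (diamonds) and inside the gene (circles) for each of the 9 genes, beside the 200 protein-coding genes nearest in length (box, median and quartiles; whiskers, 10th to 90th percentile, within 50 kb). Akt1 (12) and Irs2 (7) stand above the upper whisker, Irs1 (1) stands below the median line, and Igf1r (3) and Foxo1 (2) stand on it.

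Ordered by the highest peak, the genes were Akt1 (312 reads), Pik3r1 (281), Irs2 (261), Akt2 (192), Foxo1 (185), Pik3ca (171), Igf1r (130), Irs1 (60) and Insr (56). The Poisson intervals overlapped between neighbours in this order among Akt1, Pik3r1 and Irs2, among Akt2, Foxo1, Pik3ca and Igf1r, and between Irs1 and Insr. Overlap does not show that values are alike, and no difference between neighbours was tested. The interval of Irs2 (230 to 295) lay above that of Akt2 (166 to 221), and that of Igf1r (109 to 154) above that of Irs1 (45.8 to 77.2). Ordered by fold enrichment of the single highest-fold peak, Akt1 (27.1) was followed by Pik3ca (25.4), Pik3r1 (23.5), Igf1r (22.1) and Irs2 (21.7). Akt2, whose highest fold enrichment was 8.24, fell behind Foxo1 (14.1) and Insr (8.76) on that scale.

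**Figure D3:**
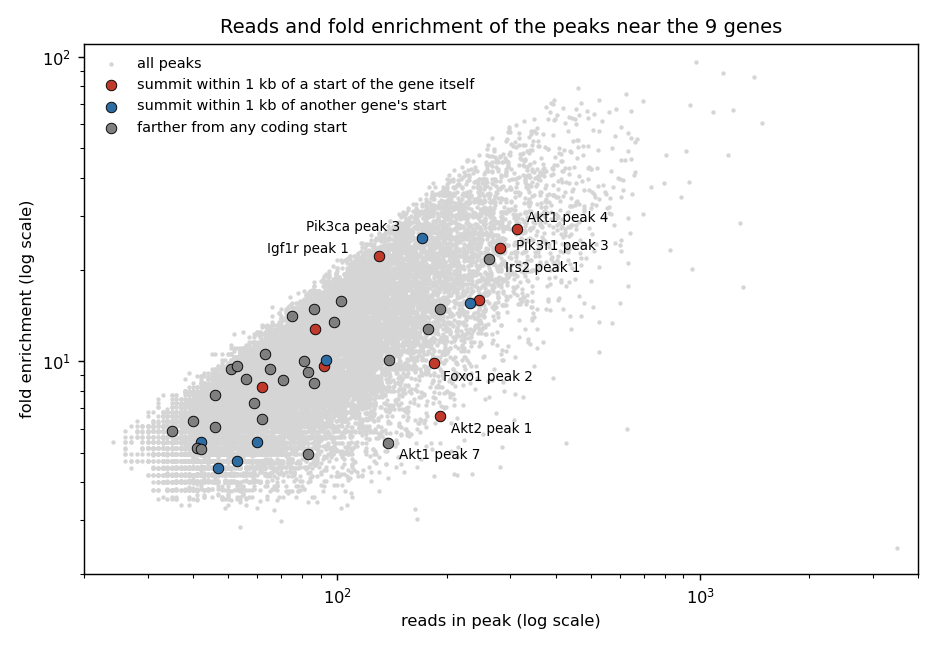
Reads (x axis, log scale) and fold enrichment (y axis, log scale) of the 43 peaks near the 9 genes over all 23308 peaks in light grey, coloured by whether the summit lies within 1 kb of a start of the gene itself, of another gene, or of neither. Akt1 peak 4 lies highest and farthest right of the 43 (312 reads, fold 27.1), and Akt2 peak 1 has many reads at a low fold (192 reads, fold 6.59).

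Of the 43 summits, 22 were inside the gene and 21 outside, with 19 in introns, 2 in coding exons and 1 in a 5′ UTR exon. Upstream lay 10 and downstream 11. Within 1 kb of an own start were 9 (20.9%, 11.4 to 35.2%). A further 7 were within 1 kb of the start of another gene (16.3%, 8.12 to 30.0%), namely those near Rhbdd1, Zmat3, Kcnmb3, AW555464, Zbtb42, Siva1 and Adssl1. Within 1 kb of any protein-coding start were therefore 16 of the 43 (37.2%, 24.4 to 52.1%), against 21.0% of all peaks. These shares are not like for like. The 43 were taken for lying in or within 50 kb of a protein-coding gene, while all peaks include those farther from genes. The 9 peaks at own starts held 62 to 312 reads with a median of 185, and the other 34 held 35 to 261 with a median of 68. Over all peaks the medians were 82 within 1 kb of a start and 70 farther away. Of the 43 peaks, 8 (18.6%, 9.74 to 32.6%) were among the 10% of all peaks with the most reads. They belonged to Irs2, Pik3r1, Akt1, Akt2 and Foxo1, and 5 of the 8 were at own starts.

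X-box matches were counted in the same 200 bp windows for all peaks. A strict X-box was present in 2 of the 43 (4.65%), in 6.42% of all peaks and in 0.253% of windows 1 kb to the right of the summits. For the wide form the numbers were 5 of 43 (11.6%), 16.4% and 2.03%. The half-site GTTGCC, which can overlap an X-box and did so at the start peak of Pik3r1, was present in 6 of 43 (14.0%), 26.8% of all peaks and 6.39% of shifted windows. When 1 letter of the strict X-box was allowed to differ, a search added after the data were seen, 9 of 43 (20.9%) had a match, against 29.8% of all peaks and 5.17% of shifted windows. The shares near the 9 genes were thus below those of all peaks and above those of the shifted windows for each form. They rest on 2 to 9 of the 43 peaks and are given without intervals. Whether they differ from the shares of all peaks was not tested. The CRE, TGACGTCA, was found at none of the 43 and at 0.287% of all summits. A match is a description of the letters and not of a bound site, and no match says only that these letters are not in the window.

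**Figure D4:**
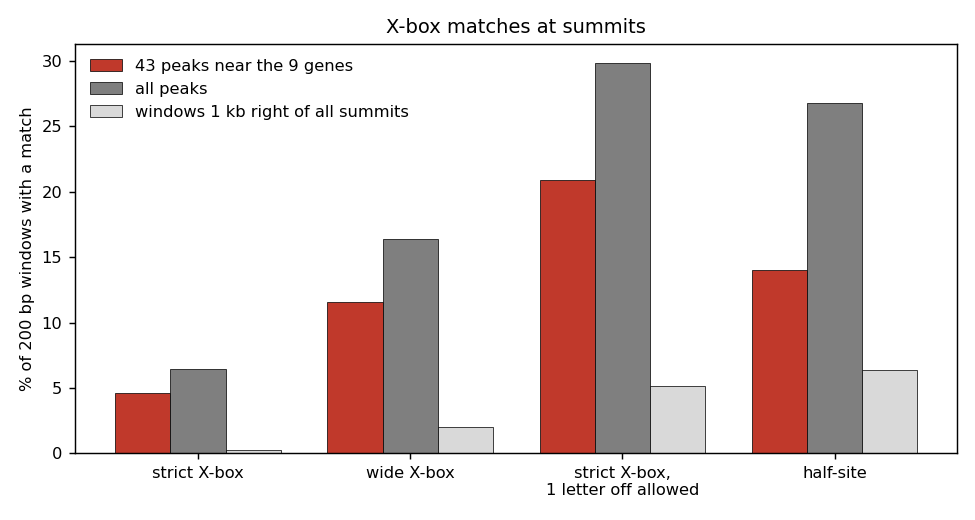
Share (%) of 200 bp windows that hold each form of the X-box, for the 43 peaks near the 9 genes, all peaks, and windows 1 kb to the right of all summits. For the strict form the bars are at 4.65, 6.42 and 0.253%, and the bar of the 9 genes stands between the others for each form.

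Base composition varied among the peaks. The GC content of the 200 bp around the summits had a median of 56.0% for the 43 peaks, 65.5% for the 9 at own starts and 54.0% for all peaks. Since 21.0% of all peaks lay within 1 kb of a protein-coding start, the values at own starts and of all peaks are not like for like. The median CpG count was 3 for the 43 and for all peaks and 4 at the own starts, where it ranged from 0 at the first peak of Akt2 to 29 at Foxo1. The 7 peaks at neighbouring starts varied as widely, with 28 at Siva1, 25 at each of Zmat3 and Zbtb42, 20 at Rhbdd1, 7 at AW555464, and 3 at each of Kcnmb3 and Adssl1. The peak with the most reads, at the Akt1 start, had 4.

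The rest of the pathway was examined with a list of 53 further genes, grouped by role. Of these, 45 (84.9%) had a summit within 50 kb, against the 67.8% of all protein-coding genes given above, and 21 (39.6%) had one at an own start, against 22.6%. Their median was 3 peaks, with a range of 0 to 20, and 29 of the 53 were above the median of genes of their own length, 10 at it and 14 below. Averaged over the 53, the share of their similar-length genes with a summit was 73.7% within 50 kb and 27.5% at an own start. By role, a summit was present within 50 kb for 3 of 4 ligands, 1 of 2 receptors, 10 of 12 substrates and adaptors, 3 of 4 PI3-kinase subunits, 8 of 8 phosphatases, 15 of 17 kinases and regulators, and 5 of 6 FoxO factors and Akt substrates. At own starts the counts in the same order were 1, 1, 2, 0, 5, 8 and 4. By role, the mean share of similar-length genes with a summit was 62.8 to 77.2% within 50 kb. At an own start it was 19.1 to 31.1%. For the phosphatases these shares were 75.2 and 31.1%. Each role holds few genes, and no difference between roles was tested. Ins1, Igf2r, Irs4, Grb14, Pik3r3, Rictor, Gsk3b and Foxo4 had no listed summit within 50 kb.

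Of the 5 genes of this list with the highest peaks, 4 had that peak within 1 kb of the start of a neighbour. Pik3r2, another regulatory subunit, had a peak of 695 reads and a fold enrichment of 71.3, which was 16.1 kb outside the gene and 425 bp from the start of Mast3. The peaks of Socs3 (275 reads), Grb10 (270) and Bad (241) likewise stood 99, 161 and 411 bp from the starts of Pgs1, Ddc and Nudt22. Rptor, which encodes the mTORC1 subunit raptor, had its peak of 326 reads inside the gene and had the most peaks of the list, 20. At their own starts, the genes with the most reads were Socs3, an inhibitor of cytokine and insulin signalling, and Bad, an apoptosis regulator that Akt phosphorylates, with 238 each. Others with many reads at an own start were the Akt substrate Tbc1d4 (158), Phlpp1 and Tbc1d1 (111 each), Eif4ebp1 (110) and Mapkap1 (100). Fold enrichment at these starts did not follow the reads. It was 12.8 for Socs3, 13.9 for Bad, 8.0 for Tbc1d4 and 11.1 for Phlpp1. For Tbc1d1, Eif4ebp1 and Mapkap1 it was 8.71, 4.49 and 15.5, where the median of all peaks was 8.54. The start peaks of Akt1 and Pik3r1 (312 and 281 reads) thus held more reads than that of any gene of the wider list.

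**Figure D5:**
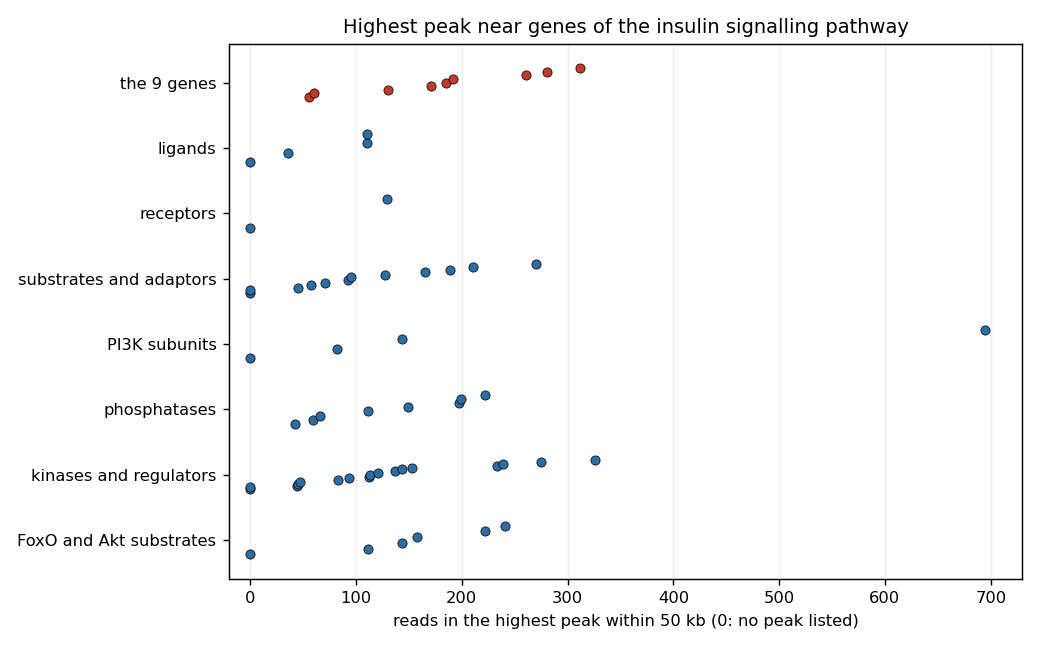
Reads in the highest peak within 50 kb (x axis; 0 where no peak is listed) of each of the 9 genes (red) and of 53 further genes of the pathway by role (blue), 1 point per gene. The 9 genes range from 56 to 312 reads, and the point at 695 is Pik3r2, whose highest peak lies near the Mast3 start.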

How the data were processed

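The authors sequenced 1 anti-HA ChIP-seq library of 3HA-Rfx6 transfected Min6b1 cells and 1 control library, and called peaks with MACS 1.4.2 on mm9 (p-value cutoff 1e-05, fragment size 234 bp, at most 1 read per position). CASAVA 1.8.2 and Bowtie are named in the submitters' processing notes without a role. For each peak the authors deposited the count of ChIP reads, not normalized, the fold enrichment over the local or control background, a score (the p-value on a log10 scale, negated and multiplied by 10) and, in percent, an FDR from exchanged ChIP and control. The peak list of the control was not used here. The kept ChIP reads were 9.52 times the kept control reads, and the effect of that on fold enrichment and FDR was not tested.

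From the list, summits were placed on GENCODE M1 protein-coding genes, and starts are those of their protein-coding transcripts. Each gene was compared with the 200 genes nearest in length. Intervals are 95% Wilson or exact Poisson intervals. With 1 library per condition no test was made. The sequences are from the mm9 reference genome. The named genes are the 9 members and, of the wider list, the 5 with the highest peaks, the 8 with the most reads at an own start, and by name those without a summit. Of the genes this rule names, 1 is not reported here. Members and lists were chosen with earlier results of these data known. Alternatives were stricter peak sets, other distances, other numbers of similar genes and other motif windows. Python 3.11.15, matplotlib 3.10.9, scipy 1.17.1, numpy 2.4.6 and pandas 2.3.3 were used, and the assignment and motif search were tested on simulated data.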

Additional observations from a re-analysis of the deposited data

How the results depend on the processing

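All of the 9 genes kept a peak within 50 kb with 100 kb or any overlap as the rule, and 6 to 8 did under the other distances and the stricter sets by score or fold. For a summit in the gene itself it was 7 of 9, against 31.3% of all protein-coding genes. The share of all genes is not given for the rest of these settings, so those counts have no background beside them. At or above the median of genes of similar length were 6 to 8 of 9 in those of these settings in which it was computed, and 8 of 9 with 50 or 500 genes or, as an alternative added after the data were seen, with genes that had as many neighbours. The number of peaks, 43, was 24 in the 50% of peaks with the highest scores and 18 at a fold enrichment of at least 10. It was 22 in the genes, 27 within 10 kb of them, 55 within 100 kb and 19 within 10 kb of a transcript start. A wide X-box, found in 5 of 43, was in 3 of 24, 4 of 18, 3 of 22, 4 of 27, 7 of 55 and 2 of 19. The shares of all peaks in the stricter sets are not given. Of the 43 peaks, 3 had a wide X-box in a window of 100 bp and 6 in a window of 400 bp. The number was 9 for the strict X-box with 1 letter off, also added after the data were seen. With an FDR of at most 1%, 10 peaks of the list remained, 0 genes of the 9 had a peak and 0 peaks had an X-box, so the comparison with similar genes has no meaning there. No paired analysis was possible because each condition had a single library, and no replicate could be left out. The depth of the single library, and of a control with fewer kept reads, limits which regions are listed.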
